A study of Homo sapiens with 8 samples.

Results

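The genes described here are 33 receptors for GABA and glutamate, the main inhibitory and excitatory transmitters of the brain, among 27434 curated RefSeq genes whose strand was known. They are a named list of 9 GABA-A subunits, 2 GABA-B receptors, 3 AMPA, 6 NMDA and 5 kainate subunits, 1 delta subunit and 7 metabotropic glutamate receptors, and other genes of these families were not counted. H3K27Ac, a histone mark of active enhancers and promoters, had been mapped by ChIP-seq in 4 human medulloblastoma (MB) cell lines, with 1 H3K27Ac and 1 input library each. MB002, D425 and HD-MB03 are Group 3 MB (G3-MB) lines, and UW228 is labelled as an SHH line. MB002 and HD-MB03 were grown without serum in tumor stem medium with EGF, FGF and LIF, and D425 and UW228 in DMEM with serum. No line was treated. Each line stands for 1 culture of 1 tumour, so a difference between lines cannot be told apart from a difference between single libraries, and no replicate spread could be given. With 3 lines against 1 an exact permutation test cannot go below 0.25, and no test was run. All comparisons between lines are therefore descriptions.

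A region is a stitched stretch of H3K27Ac peaks in the deposited enhancer table of a line. Its signal is the normalized H3K27Ac signal minus input, floored at 0, over the whole region, and its rank runs from 1, the highest signal of that line. A region was given to a gene where it overlapped the gene body or came within 50 kb of the start site in GRCh38. A gene without a region is one near which no region was listed, which does not show that acetylation was absent.

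GABA-A receptors are chloride channels built from several subunits, and GABA-B receptors are a pair of G protein-coupled subunits that work together. AMPA, NMDA and kainate receptors are cation channels opened by glutamate, whereas the metabotropic receptors signal through G proteins. In the cerebellum, where MB arises, granule neurons receive glutamate through AMPA and NMDA receptors and GABA through GABA-A receptors.

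The tables listed 26072 regions for MB002, 26317 for D425, 15286 for HD-MB03 and 20875 for UW228, of which 302 to 753 per line were called super-enhancers (SEs). The median region was 2264 bp long in UW228 and 1287 to 1585 bp in the G3-MB lines, and the median signal was 1690.0 in UW228 and 717 to 890.2 in the others. The tables of the G3-MB lines and that of UW228 were made in different runs of ROSE, the tool that stitches and ranks the regions, which cannot be told apart from the line. OTX2, a transcription factor gene active in G3-MB, had regions of rank 3, 3 and 5 in MB002, D425 and HD-MB03 and none in UW228. CRX and NRL, photoreceptor factor genes, likewise had regions in the 3 G3-MB lines only. Of all 8 Group 3 marker genes, MB002 had a region at 7 (87.5%), D425 at 6 (75%), HD-MB03 at 5 (62.5%) and UW228 at 4 (50%), where 67.4%, 69%, 54.2% and 59% of all genes had one. IMPG2 and EYS had one in every line, MAB21L2 in every line but HD-MB03, GABRA5 in MB002 and NPR3 in UW228, at rank 1082, and in no G3-MB line. In UW228, 7 of 8 SHH marker genes had a region, or 87.5%, against 6 in MB002 (75%), 5 in HD-MB03 (62.5%) and 4 in D425 (50%), the best of UW228 being EYA1 at rank 1428, and ATOH1 had none in any line. GLI1 and PTCH1, which mark SHH signalling, ranked at 203 and 61 in HD-MB03 and at 11206 and 13373 in UW228. EYA1 went the other way, with ranks of 4609 (MB002) and 14774 (D425) and no region in HD-MB03, and SFRP1 had a region in UW228 alone, at rank 3545.

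The receptor regions shared by the 3 G3-MB lines show where in a gene the acetylation lay. In 14 of the 33 genes, 22 intervals were covered by a region in each of MB002, D425 and HD-MB03. They were 143 to 11260 bp long with a median of 1530 bp, 15 lay in the gene body, and 21 (95.5%) were not touched by a region of UW228. Of the 2887 such intervals at any gene with a body of at least 100 kb, 69.0% were not touched, and of the 5820 at any gene 67.1%. The exception was an interval upstream of GRIK5 at chr19:42113541-42121929, inside the region of rank 1742 in UW228. For 4 of the intervals without a UW228 region, the central 300 bases are printed below from GRCh38 on the strand of the gene, because they are places where single regions of all 3 lines coincide within a receptor gene. They were picked after the values were seen. Capitals mark the 1 match in them to the motifs searched, TAATCC (the core bound by OTX2 and CRX), CACGTG (the E-box bound by MYC) and TGANTCA (bound by AP-1), each searched on both strands. The letters GGATTA are TAATCC read on the other strand.
GABRB1 intron, chr4:47076250-47076549, plus strand: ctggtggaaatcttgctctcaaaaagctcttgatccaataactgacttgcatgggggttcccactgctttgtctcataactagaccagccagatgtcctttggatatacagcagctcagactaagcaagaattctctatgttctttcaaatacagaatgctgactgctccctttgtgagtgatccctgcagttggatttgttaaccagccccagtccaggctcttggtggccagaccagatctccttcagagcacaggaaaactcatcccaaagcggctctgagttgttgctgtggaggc
GRIA1 intron, chr5:153517272-153517571, plus strand: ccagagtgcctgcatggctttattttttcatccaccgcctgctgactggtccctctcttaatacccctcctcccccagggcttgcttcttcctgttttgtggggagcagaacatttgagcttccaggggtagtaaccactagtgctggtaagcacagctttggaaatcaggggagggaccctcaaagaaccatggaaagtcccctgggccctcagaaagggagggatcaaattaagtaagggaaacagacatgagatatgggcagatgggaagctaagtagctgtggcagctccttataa
GRIA4 intron, chr11:105960376-105960675, plus strand: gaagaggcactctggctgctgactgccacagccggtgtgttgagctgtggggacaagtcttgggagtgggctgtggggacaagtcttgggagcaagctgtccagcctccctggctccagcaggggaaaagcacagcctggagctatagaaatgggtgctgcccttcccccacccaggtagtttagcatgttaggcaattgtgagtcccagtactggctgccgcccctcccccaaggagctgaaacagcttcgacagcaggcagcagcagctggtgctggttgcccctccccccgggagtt
GRIN2A intron, chr16:10067975-10068274, minus strand: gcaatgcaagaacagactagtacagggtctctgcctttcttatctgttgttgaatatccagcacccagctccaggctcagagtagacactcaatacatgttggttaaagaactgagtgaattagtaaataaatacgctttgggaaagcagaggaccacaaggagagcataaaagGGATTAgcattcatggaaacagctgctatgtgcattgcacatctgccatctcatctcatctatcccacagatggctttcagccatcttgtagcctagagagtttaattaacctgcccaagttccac

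The GABRB1 interval lay 81.4 kb inside the gene that encodes the beta1 subunit of GABA-A receptors. Its regions ranked at 2078 in D425, 1079 in MB002 and 1218 in HD-MB03. The GRIA1 interval, 26.9 kb inside the gene of the AMPA subunit GluA1, was covered by regions of rank 526 (MB002), 1480 (D425) and 4929 (HD-MB03). That of GRIA4, another AMPA subunit gene, was a single peak in each line, at rank 4085 in D425, 6132 in MB002 and 3519 in HD-MB03, close to the far end of the gene. The GRIN2A interval, in the gene of the NMDA subunit GluN2A, was covered at rank 15438 (MB002), 3229 (D425) and 5373 (HD-MB03). None of the 4 intervals held an exon in its central 300 bases. Of the shared intervals not printed, another in GRIN2A (chr16:10038012-10039709) held CACGTG in its central 300 bases. Its regions ranked at 8730 (MB002), 5180 (D425) and 3829 (HD-MB03). The intervals at GABBR2 and GRM2 and the one upstream of GRIN2D held TAATCC there.

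The central 300 bases of the receptor regions held TAATCC at a lower share than those of all regions in each line. The share was 14.4% of 90 receptor regions against 23.3% of all regions in MB002, 7.5% of 80 against 22.7% in D425, 6.25% of 48 against 19.0% in HD-MB03 and 15.2% of 33 against 18.2% in UW228. TGANTCA was found in 27.3% of the receptor regions of UW228, or 9 regions, against 17.6% of all its regions, and in 11.1% of those of MB002, 8.75% of D425 and 4.17% of HD-MB03, against 9.73%, 10.1% and 9.92% of all regions. CACGTG was found in 2 to 4 receptor regions per line, or 2.5% to 8.33%, on either side of the 3.15% to 4.51% of all regions. In the RefSeq promoter table (GRCh38, 250 bases before to 50 after the start), 27 of the 33 genes had 43 promoters. TAATCC was in none of them (6.36% of all 35116 promoters), CACGTG in 2, of GRM4 and GRM5 (7.26%), and TGANTCA in 3, of GABRA6, GRM4 and GRM6 (7.71%). Matches to different motifs may share bases and were counted apart, and a match or its absence is a description of the letters alone.

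The share of genes with a region was higher for the receptor genes than for all genes in each G3-MB line, and lower in UW228. At least 1 region was found for 29 of the 33 genes in MB002 (87.9%, exact 95% Clopper-Pearson interval over genes 71.8 to 96.6%), where 67.4% of all genes and 70.6% of protein-coding genes had one. The count was 26 in D425 (78.8%, 61.1 to 91.0%) against 69% of all genes and 72.7% of protein-coding ones, and 21 in HD-MB03 (63.6%, 45.1 to 79.6%) against 54.2% and 58%. In UW228 it was 12 (36.4%, 20.4 to 54.9%) against 59% and 61.8%. The directions changed with the use of the gene body. With the 50 kb window alone the receptor share was below that of all genes in every line. It was 63.6% against 64.6% for MB002, 57.6% against 66.2% for D425, 42.4% against 50.7% for HD-MB03 and 18.2% against 56.3% for UW228. The higher share in the G3-MB lines thus needed the body, and the lower share in UW228 did not. With the body alone the receptor share was above that of all genes in UW228 too (33.3% against 28.2%). With a window of 100 kb the receptor share was level with that of all genes in D425 (81.8% against 81.5%) and HD-MB03 (66.7% against 66.6%). It stayed above in MB002 (87.9% against 79.6%) and below in UW228 (45.5% against 72.5%). UW228 had the smallest count although it had more regions in all than HD-MB03. The intervals cover only the small number of genes, which are not independent of each other.

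**Figure D1:**
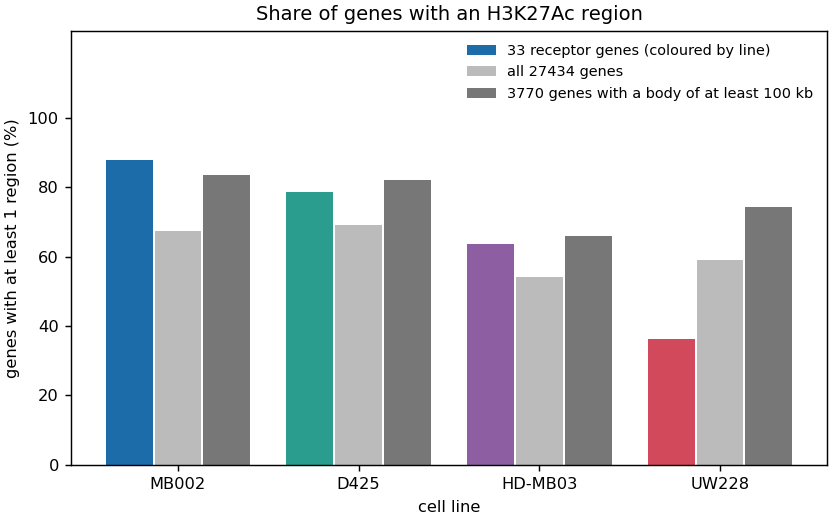
Percent of the 33 receptor genes with at least 1 region in each line (bars coloured by line), beside the percent of all 27434 genes and of the 3770 genes with a body of at least 100 kb (grey bars). The receptor genes lie above all genes in the 3 G3-MB lines and, at 36.4%, below them in UW228.

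Gene length bears on these counts, since a long body can overlap more regions. The median receptor gene body was 221 kb, against 17.5 kb over all genes. Among the 21 receptor genes of at least 100 kb, MB002 had a region at 20, D425 at 18, HD-MB03 at 15 and UW228 at 10. The shares were 95.2%, 85.7%, 71.4% and 47.6%, against 83.6%, 82.2%, 66.1% and 74.3% of all genes of that length. In MB002 these receptor genes had a median of 4 regions where all genes of that length had 2.5, and in UW228 a median of 0 where those had 2. Among the 12 shorter receptor genes, 9, 8, 6 and 2 had a region in the same order of lines, or 75%, 66.7%, 50% and 16.7%, against 64.9%, 67.0%, 52.3% and 56.6% of all shorter genes. In both length classes the share of the receptor genes was close to or above that of other genes in the G3-MB lines and below it in UW228.

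The receptor genes had 33 distinct regions in UW228, 48 in HD-MB03, 80 in D425 and 90 in MB002. The median best rank was 9019 in UW228, 3829 in HD-MB03, 6412 in D425 and 6260 in MB002, or 43.2%, 25.05%, 24.36% and 24.01% of the way down the regions of the line, against 32.4%, 27.2%, 24.4% and 26.9% over all genes with a region and 25.1%, 28.4%, 23.1% and 21.5% over those of at least 100 kb. Beside the long genes, the receptor genes of MB002 and D425 thus ranked lower too, and those of HD-MB03 higher. Beside all genes, the better median best rank of HD-MB03 turned with a window of 100 kb (3674 against 3341) and the body alone (5293 against 4269). It also turned with the closest start site (6989.5 against 5979.5), regions above the median signal (2981 against 2419) and no input subtraction (4508 against 4161.5). That of MB002 turned with the window alone (8171 against 7584) and signal per base pair (7903 against 6695.5), among others. The lower standing in UW228 turned under 3 alternatives, where the median best rank was 3999 against 5493.5 for all genes (window of 100 kb), 5631 against 8221 (regions given only to the gene with the closest start site) and 6207 against 7177 (ranked by signal per base pair). Beyond those over a start site, 30 of 33, 35 of 48, 62 of 80 and 75 of 90 receptor regions of these lines lay in the body of their gene. With the start sites the shares were 93.9%, 77.1%, 77.5% and 85.6%, where 62.5%, 69.3%, 60.5% and 61.7% of all regions overlapped the body of any gene, and body overlap was among the criteria that assigned the receptor regions. The start site itself was inside a region for 1, 2, 0 and 2 of the 33 genes, where 5.49%, 5.93%, 7.07% and 7.89% of protein-coding start sites were. A single peak made up 15, 31, 38 and 41 of the regions, or 45.5%, 64.6%, 47.5% and 45.6%, against 50.03%, 62.2%, 49.1% and 48.4% of all regions. The input density over the receptor regions, relative to the median of the line, had a median of 0.984 to 1.06 and a maximum of 4.22, at a GRIN2C region in D425.

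**Figure D2:**
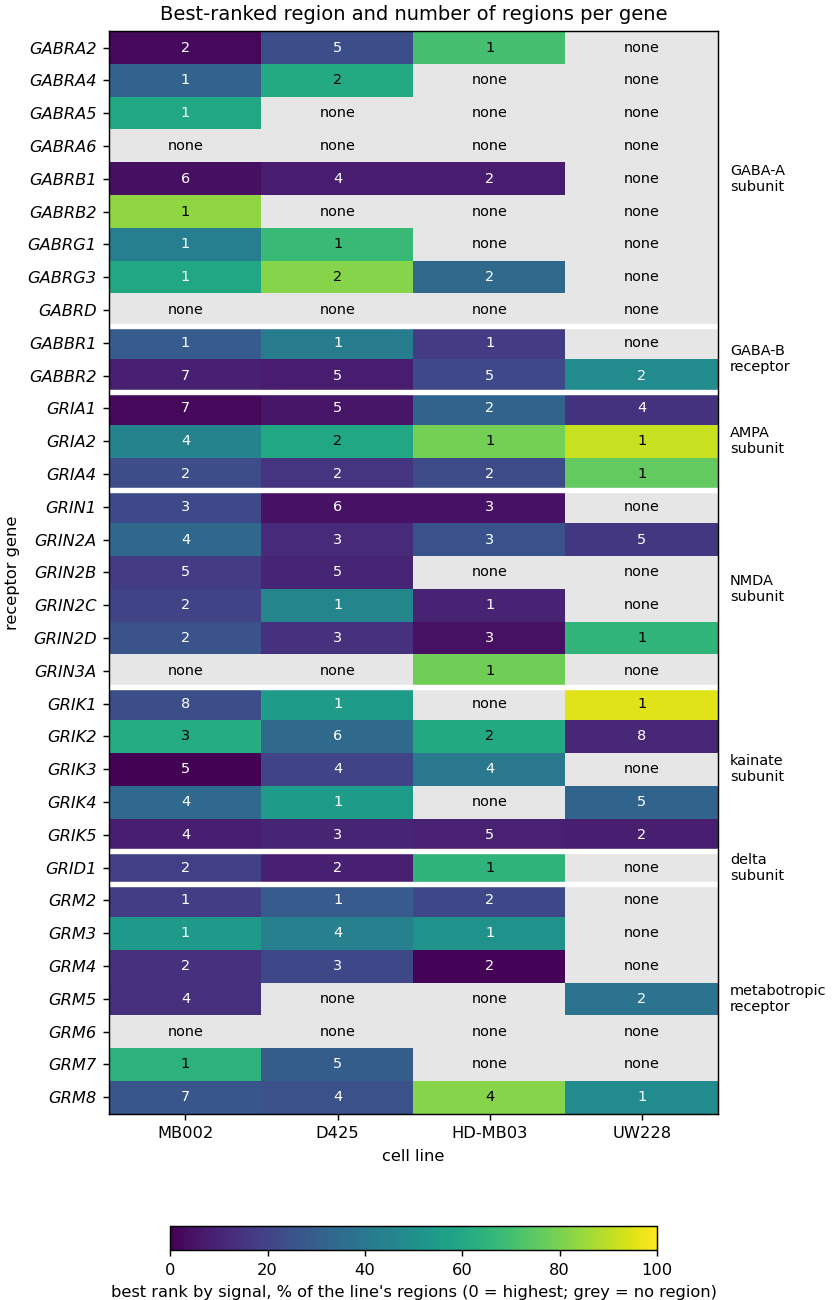
Best rank of a region for each of the 33 receptor genes (rows, grouped by receptor family) in each line (columns), as colour on a scale of percent of the regions of that line from 0 (highest signal) to 100, with the number of regions printed in the cell. Grey cells are genes with no region, and the UW228 column has 21 of them, among them all 9 GABA-A subunits.

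GRIK3 was the only receptor gene with an SE in MB002 (3.18% of all genes had one) and GRM4 the only one in HD-MB03 (3.03%). No receptor gene had an SE in D425 or UW228, where 4.18% and 5.25% of all genes did.

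GRIK3 encodes a kainate receptor subunit, and its body spans chr1:36795527-37034515. Its summed signal was 7649.5 in D425, 72963 in MB002 and 3433 in HD-MB03, and UW228 had no region there. The MB002 value was the highest of any receptor gene in any line. The SE, of rank 120 in MB002, ran over 124223 bp (chr1:36951186-37075408), joined 24 peaks and covered the start site. Within its bounds D425 had regions of rank 5376 and 19955 and HD-MB03 one of rank 6381, and those of rank 5376 and 6381 lay 33.6 and 34.4 kb upstream of the start site. All 5 regions of GRIK3 in MB002 had a relative input density of 1.497 to 1.78, and the part of that density in the GRIK3 values was not tested.

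GRM4 encodes the metabotropic receptor mGluR4, which is used by cerebellar granule cells, and spans chr6:34018643-34155622. Its summed signal was 37124 in HD-MB03, 7713 in MB002 and 3669 in D425, with no region in UW228. HD-MB03 thus stood above both other G3-MB lines. The SE of rank 156 in HD-MB03 joined 23 peaks over 90637 bp (chr6:34059260-34149896) and began 5.73 kb inside the gene. At the far end of the gene all 3 lines had a region, at rank 5737 in D425, 3684 in MB002 and 2475 in HD-MB03.

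**Figure D3:**
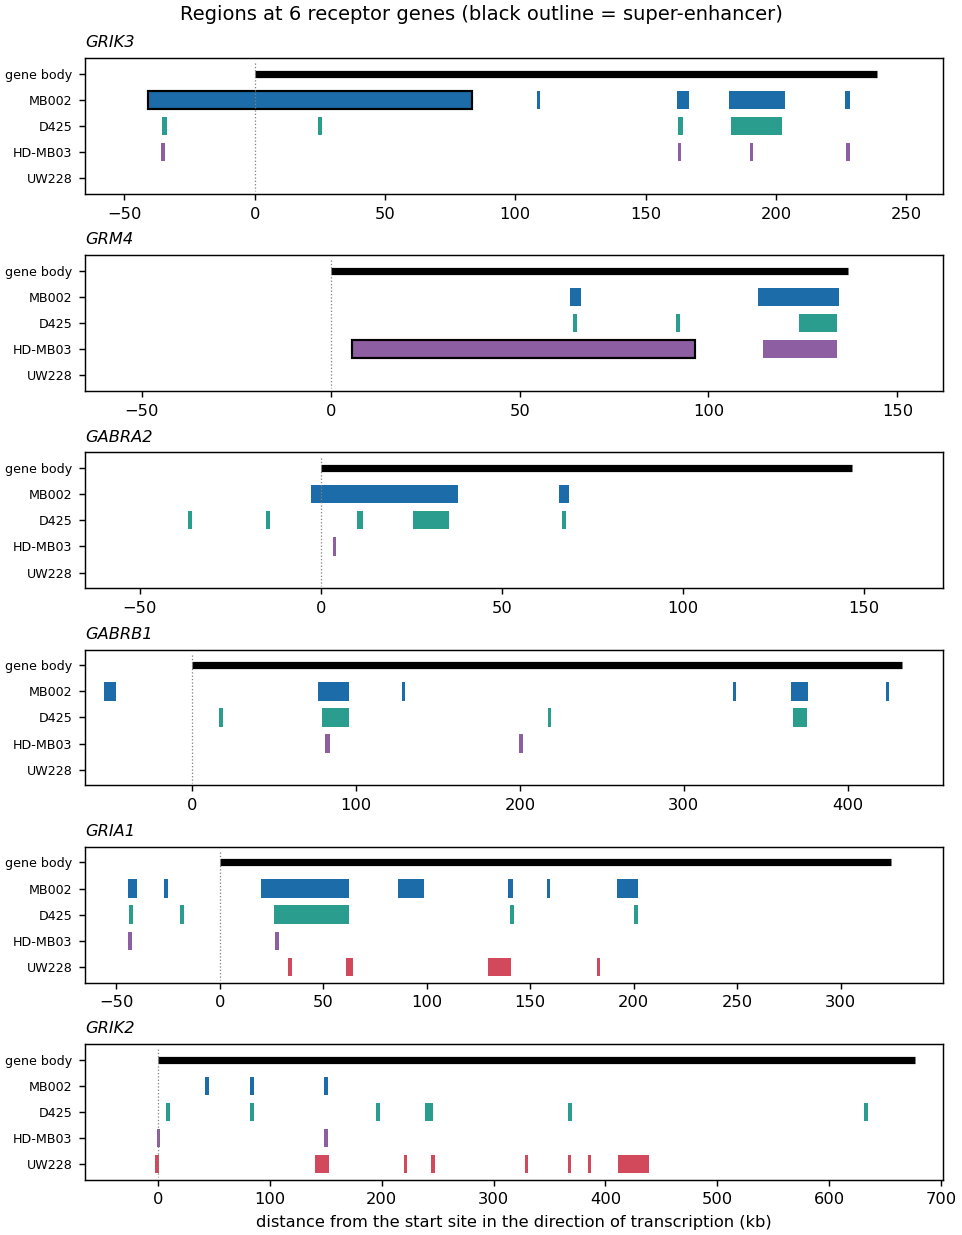
Regions at GRIK3, GRM4, GABRA2, GABRB1, GRIA1 and GRIK2 in the 4 lines, by distance from the start site in the direction of transcription in kb, with the gene body as a black bar, SEs outlined in black, and regions too narrow to see widened to a fixed minimum. The SE of GRIK3 covers the start site in MB002 and that of GRM4 lies in the gene body in HD-MB03, and UW228 has no region at either gene and 8 at GRIK2.

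In all, 11 of the 33 genes (33.3%) had a region in each G3-MB line and none in UW228, against 10.6% of all genes and 9.68% of those of at least 100 kb. They were GABRA2, GABRB1, GABRG3, GABBR1, GRIN1, GRIN2C, GRIK3, GRID1, GRM2, GRM3 and GRM4, so every receptor class but the AMPA subunits was among them. A region in at least 1 G3-MB line and none in UW228 was found for 18 genes (54.5%, against 27.1% of all genes and 21% of long ones). The reverse, a region in UW228 and in no G3-MB line, was found for 0 of the 33, against 4% of all genes and 2.47% of long ones. A region in all 4 lines was found for 9 genes (27.3%, against 32.5% of all genes and 48.1% of long ones), namely GABBR2, GRIA1, GRIA2, GRIA4, GRIN2A, GRIN2D, GRIK2, GRIK5 and GRM8. Only GABRA6, GABRD and GRM6 had no region in any line (9.09%, against 13.9% of all genes and 4.67% of long ones). GABRA6 and GABRD encode the alpha6 and delta subunits of the GABA-A receptors of mature granule cells, and GRM6 the glutamate receptor of retinal ON bipolar cells.

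Among the G3-MB lines, MB002 had a region at every receptor gene that had one in D425. Both lines had one at GABRA4, GABRG1, GRIN2B and GRM7, which had none in HD-MB03 and UW228. GABRA5 and GABRB2 had one in MB002 alone, at rank 15527 and 21752, and GRIN3A in HD-MB03 alone, at rank 11978. GRIK1 and GRIK4 lacked one in HD-MB03 alone, and GRM5 had one in MB002 and UW228.

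By summed signal, 14 of the 30 receptor genes with a region in any line were at least 2 times higher in each G3-MB line than in UW228 (46.7%), against 19.7% of all genes with a region and 17% of long ones. These were the 11 genes without a UW228 region, for which no fold exists, with GABBR2, GRIA4 and GRIN2D. GRIK2 and GRIK4 were at least 2 times higher in UW228 than in each G3-MB line (6.67%, against 21.8% of all genes with a region and 25.8% of long ones). The sums run over regions called separately in each line, at places that often differed, and so are no fold of 1 element. With a window of 100 kb GRIN2C, GRIN2D and GRM4 no longer passed the first rule and GABRA4 did, and GRIA2 took the place of GRIK4 under the second. With the signal divided by the summed signal of the line, 15 genes passed the first rule and 2 the second, against 21.6% and 18.6% of all genes with a region.

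**Figure D4:**
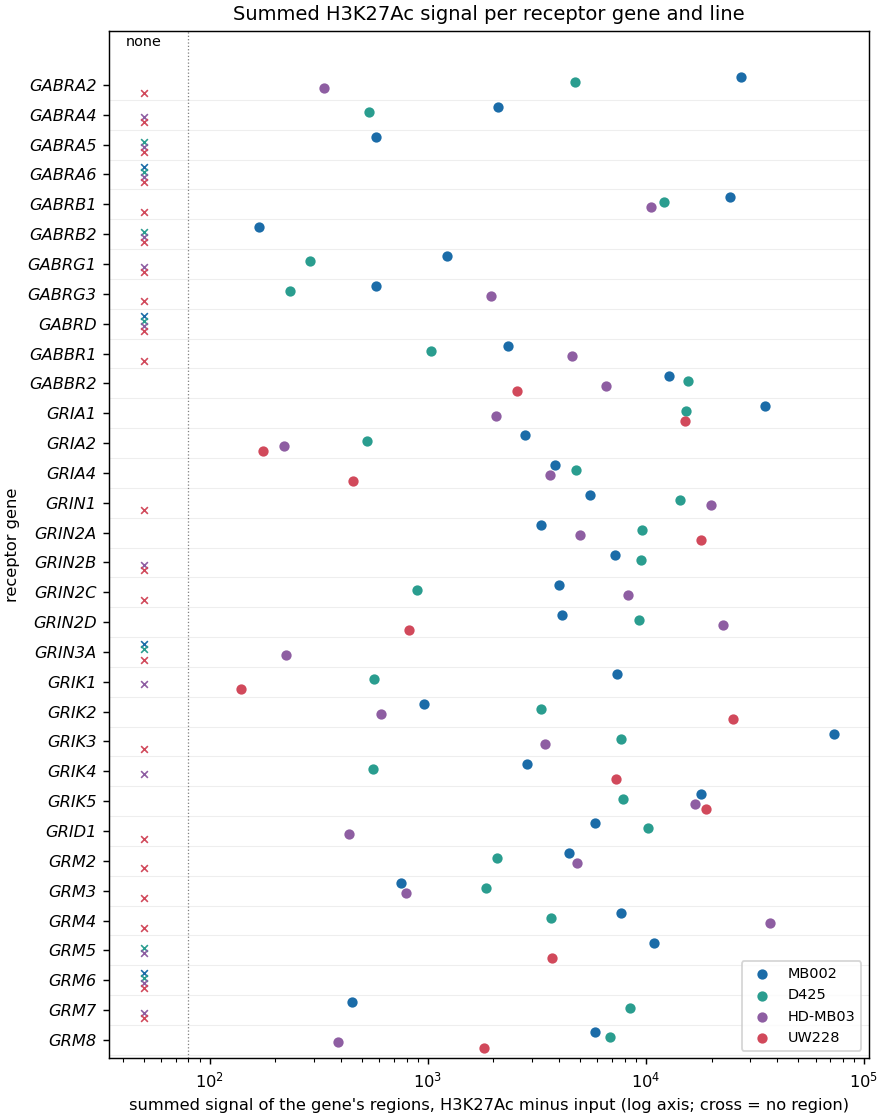
Summed signal (H3K27Ac minus input) of the regions of each receptor gene (rows) on a log axis, with 1 point per line from 1 library each and crosses on the left for genes with no region. UW228 has a cross at 21 genes, and its point at GRIK2 (25139) and GRIK4 (7267) lies to the right of those of the G3-MB lines.

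The GABA-A subunit genes had no region in UW228. Of 9 such genes, MB002 had a region at 7 (77.8%), D425 at 5 (55.6%), HD-MB03 at 3 (33.3%) and UW228 at 0, where 67.4%, 69%, 54.2% and 59% of all genes had one, so D425 and HD-MB03 were below all genes as well. GABRB1 had a summed signal of 12119 in D425, 24406 in MB002 and 10567 in HD-MB03, so all 3 lines were high and MB002 was the highest. GABRA2, whose alpha2 subunit helps form GABA-binding sites, had 4735 in D425, 27285 in MB002 and 333 in HD-MB03. Its MB002 region of rank 578 joined 12 peaks over 40698 bp (chr4:46352245-46392942) and covered the start site, whereas the best HD-MB03 region ranked at 10767. GABRG3, a gamma subunit gene of 570.8 kb, had low values of 577 (MB002), 234 (D425) and 1951 (HD-MB03). Its only MB002 region was the 1 that GABRA5 had, in the body of that neighbouring gene, and 1 MB002 region was likewise given to both GABRA4 and GABRB1.

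Both GABA-B genes had regions in the 3 G3-MB lines, where 67.4% (MB002), 69% (D425) and 54.2% (HD-MB03) of all genes had one. GABBR1, the subunit that binds GABA, had 1 region 5.22 to 5.64 kb upstream of its start in each, with a signal of 1040.3 in D425, 2345 in MB002 and 4569.7 in HD-MB03. Its intervals nearly coincided in the 3 lines. GABBR2, the subunit that couples to the G protein, had 12790.4 (MB002), 15564 (D425), 6585 (HD-MB03) and 2557 (UW228), over 11.5, 34.2, 26.6 and 14.9 kb of regions. The best region of each G3-MB line, at rank 2302 (MB002), 2131 (D425) and 3395 (HD-MB03), was centred 273 to 277 kb from the start of a gene of 420.8 kb, with the start site of TBC1D2 closest to its centre. Neither UW228 region overlapped these best regions.

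All 3 AMPA subunit genes had a region in every line, where 32.5% of all genes and 48.1% of those of at least 100 kb did. Their bodies were 146 to 372 kb long. GRIA1 was second of the receptor genes by best rank in MB002 and D425 and the third in UW228. Its summed signal was 15282 in D425, 35028 in MB002, 2056 in HD-MB03 and 15149 in UW228, so UW228 lay level with D425 and above HD-MB03. The best UW228 region, at rank 3028 (chr5:153550623-153554072), overlapped only the end of the long regions of MB002 and D425. GRIA4 had 3819.7 (MB002), 4783 (D425) and 3619 (HD-MB03) against 455 in UW228, over 8.04, 1.545, 2.47 and 0.581 kb. The 1 UW228 region overlapped none of the G3-MB regions, and the mean signal per base pair of UW228 (0.784) lay above that of MB002 (0.475). GRIA2, the subunit gene that sets calcium permeability, was low throughout, with a best rank of 11626 to 19148.

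Each G3-MB line had a region at 5 of the 6 NMDA subunit genes (83.3%, against 54.2% to 69% of all genes), lacking GRIN3A in MB002 and D425 and GRIN2B in HD-MB03, and UW228 had one at 2 (33.3% against 59%). GRIN1, which encodes the subunit that all NMDA receptors need, had a summed signal of 14345 in D425, 5568 in MB002 and 19977 in HD-MB03 and no region in UW228. It was the best-ranked receptor gene of D425, at rank 1250. GRIN1 lies among many genes, however, and the region of rank 730 in HD-MB03 was 43.0 kb away, closest to MAN1B1, while the D425 region was closest to DPP7. The region of rank 730 held 14599.7 of the HD-MB03 signal, and without it 5377.5 remained. MB002, D425 and UW228 had regions that overlapped it, 53.1 to 54.8 kb from GRIN1 and so just beyond the window, the UW228 one at rank 7335. Of the other HD-MB03 regions, that 8.43 kb upstream of the start ranked at 2608 and that in the gene body at 8260. GRIN2C, the subunit gene of mature granule cells, had 3998 (MB002), 897 (D425) and 8296 (HD-MB03). Of the MB002 value, 3803 came from a region downstream of the gene, and the region in the body held 195. The HD-MB03 region (chr17:74815759-74843302) overlapped only the far end of the gene, which spans chr17:74842023-74861532. GRIN2D had 9321 in D425, 4144 in MB002, 22502 in HD-MB03 and 820.1 in UW228. Its HD-MB03 region of rank 658 was 48.5 kb away and closest to EMP3, and without its 15646 the HD-MB03 value was 6856. UW228 had a region that overlapped it, at rank 2591 and 60.6 kb from GRIN2D, and MB002 and D425 had one beyond the window as well. With a window of 100 kb the sums were 16792 in D425, 14307 in MB002, 22502 in HD-MB03 and 12391 in UW228, so the low UW228 value at GRIN2D rested on the window. GRIN2A went the other way, with 3295 (MB002), 9648 (D425) and 5005 (HD-MB03) against 17889.8 in UW228, whose regions covered 46.4 kb against 3.93, 20.4 and 6.96 kb. With a window of 100 kb D425 had 17872, level with UW228. Its UW228 regions of rank 3354 and 3467 lay nearer the start site than the shared G3-MB intervals.

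Kainate subunit genes held the strongest G3-MB value, that of GRIK3, and genes with a higher sum in UW228. GRIK2 had a summed signal of 3309.8 in D425, 963 in MB002, 609 in HD-MB03 and 25139 in UW228. UW228 had 8 regions over 50.4 kb, against 12.4 kb in D425, the best at rank 2247 and 411 kb inside the gene (chr6:101805094-101832676). GRIK4 had 2847 (MB002), 563 (D425), no region in HD-MB03 and 7267 in UW228, over 10.4, 0.557 and 7.397 kb. With a window of 100 kb the order turned, with 16167 for MB002 and 10656 for UW228. GRIK5 had 7818 in D425, 17945 in MB002, 16878 in HD-MB03 and 18911 in UW228, so D425 was the low line and the others lay close together, and it was the best-ranked receptor gene of UW228. The best region of MB002, D425 and UW228 at GRIK5 was the same stretch 40.1 to 43.3 kb upstream of its start, which lay closest to MIR4323 and was given to 4 other genes as well.

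GRID1, the delta subunit gene, had a summed signal of 10254 in D425, 5863 in MB002 and 435 in HD-MB03 and no region in UW228. The shared interval lay upstream of the gene, where D425 had its best region at rank 2262.

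Among the metabotropic receptors, MB002 had a region at 6 of 7 genes (85.7%), D425 at 5 (71.4%), HD-MB03 at 4 (57.1%) and UW228 at 2 (28.6%), where 67.4%, 69%, 54.2% and 59% of all genes had one, so D425 and HD-MB03 were near all genes. GRM2, an autoreceptor that lowers transmitter release, had 4431 (MB002), 2067 (D425) and 4837 (HD-MB03), in a gene of 11.5 kb. Each line had a region over that short body, at rank 4753, 7579 and 5861 respectively. Of the HD-MB03 value, 3412 came from a region of rank 3309 that lay 10.6 kb upstream of the start site and closest to TEX264. The HD-MB03 region over the body held 1425, below the values of MB002 and D425. GRM3, a close relative of GRM2, had low values of 753 (MB002), 1849 (D425) and 796 (HD-MB03). GRM8 had regions in all 4 lines at a best rank of 6491 to 12524, and GRM5, the receptor that raises intracellular calcium, had 10875 in MB002 and 3726 in UW228.

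Receptor regions of the G3-MB lines overlapped a region of UW228 at a lower share than all regions of those lines did. Of the 90 receptor regions of MB002, 32 overlapped a D425 region (35.6%, against 45.0% of all MB002 regions) and 32 an HD-MB03 region (35.6% against 35.2%), but 5 a UW228 region (5.56% against 20.3%). Of the 80 of D425, 5 overlapped a UW228 region (6.25% against 24.4%), as did 7 of the 48 of HD-MB03 (14.6% against 26.2%). Read from UW228, 6 of its 33 receptor regions overlapped an MB002 region (18.2% against 24.7%). Of the 33, 11 overlapped a region of any G3-MB line (33.3%, against 42.5% of all UW228 regions).

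The other genes of GABA and glutamate synapses, a list of 42 enzymes, transporters, scaffolds and auxiliary subunits, had a region for 17 genes in UW228 (40.5%), 20 in HD-MB03 (47.6%), 31 in D425 (73.8%) and 34 in MB002 (81.0%), against 59%, 54.2%, 69% and 67.4% of all genes, so that in HD-MB03 as in UW228 the share was below that of all genes. Of these 42, 7 had one in each G3-MB line and none in UW228 (16.7%, against 10.6% of all genes and 33.3% of the receptor genes), such as SLC17A7, which loads glutamate into vesicles, and CNIH2 and CACNG5, which assist AMPA receptors. A region in at least 1 G3-MB line and none in UW228 was found for 22 of the 42 (52.4%, beside 54.5% of the receptor genes and 27.1% of all genes), and one in UW228 alone for none (4% of all genes). Transporters had regions in 2, 4, 8 and 9 of 11 genes (18.2%, 36.4%, 72.7% and 81.8%), in the same order of lines. UW228 was not low at every gene, since CNIH3, an AMPA auxiliary subunit gene, ranked at 51 as an SE, and no gene of this list had an SE in a G3-MB line.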

How the data were processed

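Each of the 4 lines had 1 H3K27Ac ChIP-seq library and 1 input library. The authors aligned reads to GRCh38 with Bowtie2 2.3.0, removed multi-mapping and duplicate reads, called peaks over input with MACS2 2.2.6 and stitched and ranked them with ROSE; the submitters' processing notes also name SAMtools 1.9. The deposited signal of each region is its mean read density, scaled by the number of mapped reads, times its length, for H3K27Ac and for input, without subtraction. The deposited score columns hold the number of peaks, the rank and the SE call. Library depth is not given, so values have no counting error.

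Input was subtracted, with a floor of 0, and the order of the remainder equalled the deposited rank in all 4 lines. Gene bounds were those of RefSeq GRCh38.p14, with strand from GENCODE 44, for 27434 of 29974 curated genes. Some genes are not reported here. Values were computed with Python 3.11.15, pandas 2.3.3, scipy 1.17.1 and numpy 2.4.6, with plots from matplotlib 3.10.9. The gene assignment was tested on simulated regions. The members, gene lists and rules were chosen with earlier results of these data known, and therefore no enrichment test was run. Genes described with values were those with an SE in any line, those with a region in all 3 G3-MB lines and not UW228 or the reverse, those at least 2 times apart in summed signal, and the 3 best-ranked of each line. Others were given by counts and ranges or in brief, by choice after their values were seen. Alternatives changed the window, the use of the gene body, the closest start site, the signal scale, the input correction, the SE call and the number of regions. GENCODE bounds, regions away from start sites and leaving out each G3-MB line were added after the data were seen.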

Additional observations from a re-analysis of the deposited data

How the results depend on the processing

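Of 229 values recomputed under 18 alternatives, 195 stayed close to the reported value and 34 moved, where close means inside the exact 95% interval for a share and within 1.5 times for a count or a rank. The share of receptor genes with a region was lower in UW228 than in each G3-MB line in all 10 settings that give shares, the reported one included.

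The gene body carried much of the signal. With the window of 50 kb alone, shares fell to 57.6% in D425, 63.6% in MB002, 42.4% in HD-MB03 and 18.2% in UW228, against 66.2%, 64.6%, 50.7% and 56.3% of all genes, so the G3-MB shares no longer exceeded those of all genes. Regions then numbered 34, 34, 23 and 7, the median best rank of D425 was 11451 (6779 for all genes), and 4 genes had a region in all lines and 7 in none (28.7% and 15.2% of all genes). With the body alone, 33.3% of the receptor genes had a region in UW228 against 28.2% of all genes, so UW228 was not below all genes there. Under a further rule a region counted only for the gene whose start site was the closest of all genes to its centre. Shares were then 66.7% in MB002 and 57.6% in D425 (40.4% and 41.1% of all genes), with 28 regions in HD-MB03, 50 in D425 and 49 in MB002. The median best rank was 6989.5 in HD-MB03 and 5631 in UW228 (5979.5 and 8221 for all genes), and 4 genes had a region in all lines and 9 in none (11.0% and 36.0% of all genes). Keeping only regions above the median signal of their line gave shares of 69.7%, 60.6% and 42.4% in MB002, D425 and HD-MB03 (48.9%, 51.6% and 38.4% of all genes), 44, 38 and 24 regions there and 14 in UW228, a median best rank of 5025.5 in UW228 (3868 for all genes), and 4 genes in all lines and 6 in none (14.9% and 25.96% of all genes). A window of 100 kb gave a median best rank of 3999 in UW228 (5493.5 for all genes), so there, as with the rule of the closest start site, the UW228 receptor genes ranked better than all genes and not worse. With the 15000 top-ranked regions, 5 genes had a region in no line (20.3% of all genes). Without regions within 2.5 kb of a protein-coding start site, MB002 had 0 receptor genes with an SE (1.10% of all genes), since the GRIK3 SE covers one. Fewer regions enter under the narrower rules, and the cause of the changed ranks was not tested.

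Leaving out each G3-MB line in turn, which was added after the data were seen, gave 0 to 1 genes with a region in UW228 and no G3-MB line, the 1 being GRM5 without MB002 (5.12% to 8.25% of all genes). Genes with a region in the G3-MB lines and not UW228 then numbered 11 to 15 (12% to 15.6% of all genes), and genes at least 2 times higher in the G3-MB lines 14 to 21 (23.1% to 29.6% of all genes with a region), the higher counts being those without HD-MB03. No paired analysis was possible because each group is a single line with 1 library. Library depth is unknown, and a gene with no region may have acetylation below what was called.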
